A study of Mus musculus with 2 samples.

Results

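Genes of calcium handling and excitation-contraction coupling were compared between control mice and mice lacking PGC-1β in myofibres, named PGC-1β(i)skm-/- and here also called mutant, with RNA of the gastrocnemius, a calf muscle. The 44 genes were taken by their symbols from a list of known roles and cover the triad, the calcium pumps and buffers, calcineurin and CaMK signalling, store-operated entry and the mitochondrial calcium uniporter. Of them, 43 were measured by a probe set assigned to that gene alone, among 19936 named nuclear genes in all. Scn4a, the voltage-gated sodium channel of the muscle surface, was not analysed here.

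Each genotype was represented by 1 array, hybridized with RNA pooled from 3 male mice on a C57BL/6 background, 8 weeks old. All of these mice had both PGC-1β alleles floxed (L2), and all received tamoxifen from an age of 7 weeks, a daily injection of 1 mg on 5 days, according to the methods of the study. Only the mutants carried the HSA-Cre-ERT2 transgene, which expresses a tamoxifen-dependent recombinase in myofibres under human skeletal actin regulatory elements, so that the effect of the transgene and that of the deletion cannot be told apart. The sample labels call the control genotype wild-type. Signals are on the log2 scale, pairs of signals are given with the control array first, and a log2 difference is mutant minus control, from which ratios were computed. Signals of different genes cannot be set against each other, because probe sets differ in brightness. A single array per genotype leaves the spread between mice unmeasured, so that no difference was tested. The ratios of 0.8 and 1.2 that the study used to call a gene lower or higher serve here only to sort sizes, and precision is limited by there being 1 array a side. The targeted gene Ppargc1b had log2 signals of 7.87 and 7.06, a ratio of 0.569. Its probe set is not restricted to the deleted exon, so that it checks the label only in part.

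In excitation-contraction coupling, the muscle action potential, carried by sodium channels, spreads over the sarcolemma into the transverse tubules, where the voltage-sensing dihydropyridine receptor opens the ryanodine receptor of the adjoining sarcoplasmic reticulum. Calcium released there starts contraction and is then pumped back by SERCA and held in the lumen by calsequestrin. Calcium also activates CaMKII and the phosphatase calcineurin, which moves NFAT factors into the nucleus, and it enters mitochondria through the uniporter, where it stimulates dehydrogenases of oxidative metabolism.

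None of the 43 measured genes reached a ratio of 0.8 or less, and none reached 1.2 or more, where 0.652% and 1.64% of all named genes did. Of the 8205 genes with a mean log2 signal of 7 or more, 65 and 67 did. With shares this small, finding none among 43 genes lies near the share of all genes. None of the 43 reached a ratio of 1/1.2 or less either, against 1.69% of all genes, or of 0.9 or less, against 8.11%. A ratio of 1.1 or more was found for 2 of the 43 genes, Cacng1 and Orai1, against 10.5% of all genes. This count uses the brightest probe set of each gene. With the mean or median of its probe sets, Trdn also passed 1.1, at log2 differences of 0.1496 and 0.1471. The nearer comparison is with the 8205 genes with a mean log2 signal of 7 or more, as 40 of the 43 genes have. Of these 8205, 508 reached 1.1 or more, a smaller share than of all genes, and 722 reached 0.9 or less. The log2 differences lay between −0.14 for Smdt1 and 0.17 for Cacng1, with a median of 0.0225, or 0.0140 without the 2 genes under a mean log2 signal of 6. The median over all named genes was −0.0006. Below 0 were 18 of the 43 genes (41.9%), against 50.2% of all genes and 56.4% of those with a mean log2 signal of 7 or more. The differences of 36 genes (83.7%) were within 0.10 of 0, compared with 66.0% of all genes and 70.7% of the 8205 genes with a mean log2 signal of 7 or more. Most of these genes are bright in muscle, with 40 of the 43 at a mean log2 signal of 7 or more, and Ryr3, Sln and Pln were the 3 with a mean below the median of all genes, 6.46. In dim probe sets differences can be compressed, but they also scattered more widely here. The standard deviation of the differences was 0.116 over all genes and 0.106 over those with a mean log2 signal of 7 or more. Whether differences are also compressed in the brightest probe sets was not tested. In RNA of whole muscle, fewer cells of a type and less RNA per cell cannot be told apart.

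**Figure D1:**
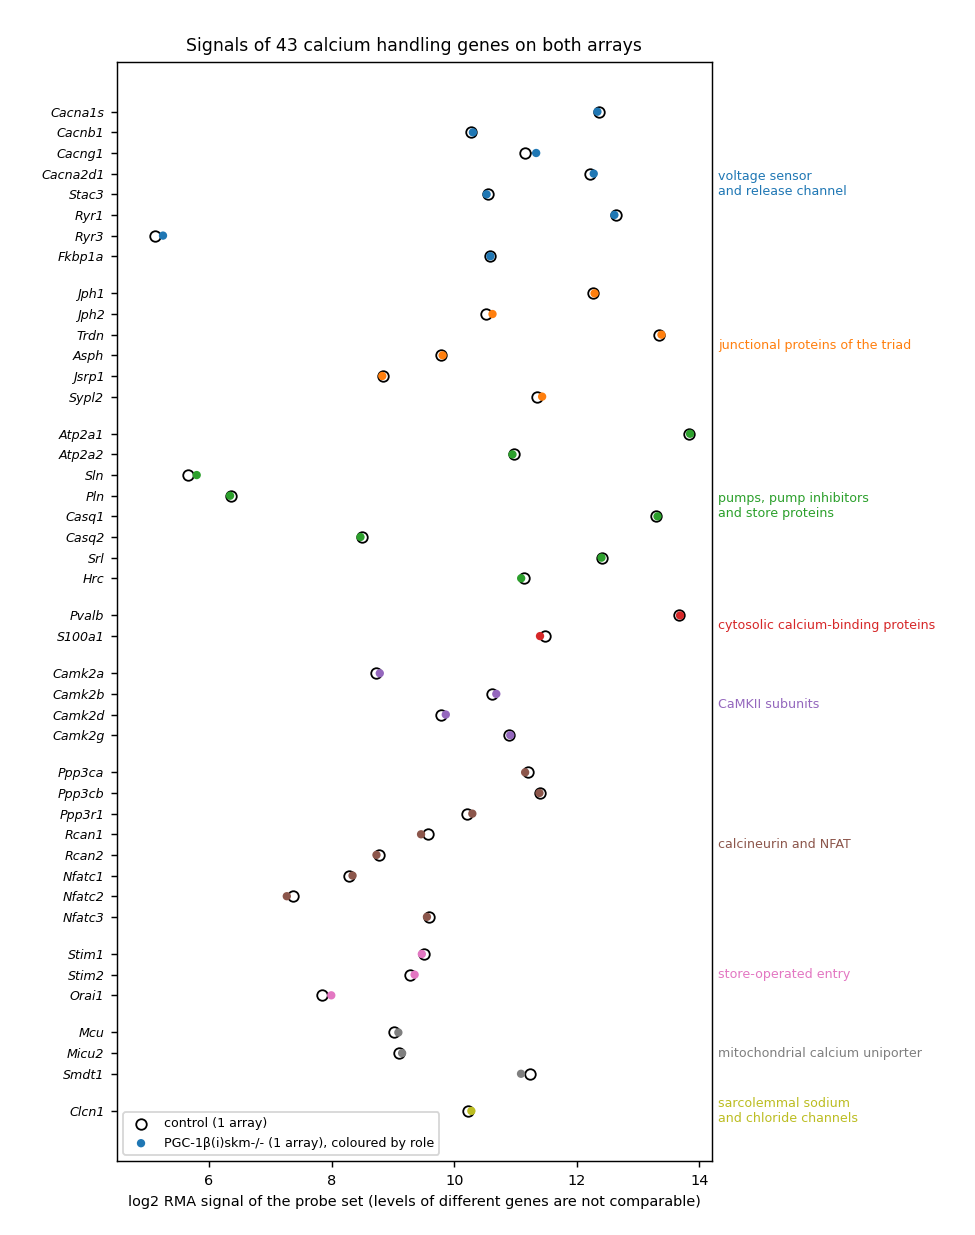
Log2 RMA signals (horizontal axis) of the 43 measured genes (vertical axis, ordered by role) on the control array (open circles) and the PGC-1β(i)skm-/- array (filled circles). The 2 circles of each gene overlap or lie close together, and the widest gap is that of Cacng1, at 11.16 and 11.34.

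The sequences shown first are the promoter stretches of the genes at the ends of the range. For Smdt1, the lowest, and Orai1, the second highest, the 250 bases before the transcription start are given from RefSeq (GRCm38.p6), both on the plus strand, 5′ to 3′. Cacng1 is not in the promoter table.

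Smdt1, chr15:82345796-82346045: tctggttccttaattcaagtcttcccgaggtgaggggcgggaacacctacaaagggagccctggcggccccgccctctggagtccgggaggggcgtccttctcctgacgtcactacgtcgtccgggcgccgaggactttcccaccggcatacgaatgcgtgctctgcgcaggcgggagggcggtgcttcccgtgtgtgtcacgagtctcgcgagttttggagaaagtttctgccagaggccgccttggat
Orai1, chr5:123014824-123015073: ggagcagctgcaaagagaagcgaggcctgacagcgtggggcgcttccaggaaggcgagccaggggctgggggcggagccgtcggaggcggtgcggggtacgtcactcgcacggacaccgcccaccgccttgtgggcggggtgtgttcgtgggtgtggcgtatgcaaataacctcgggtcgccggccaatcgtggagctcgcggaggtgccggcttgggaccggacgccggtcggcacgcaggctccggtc

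Oestrogen-related receptors and GABPA are DNA-binding partners through which PGC-1 coactivators act, and MEF2 factors drive muscle genes downstream of calcium signals. Neither stretch holds AAGGTCA, the core of the oestrogen-related receptor site, CCGGAAGT of GABPA or the MEF2 site, read here as TA, any 4 letters of A or T, and TA, on either strand. Promoter windows of 300 bases, 250 before and 50 after the start, were at hand for 30 of the 44 genes, with 38 windows in all. AAGGTCA was present in windows of 1 of these 30 genes (3.33%), against 5.38% of the 27025 genes in the table. Counted by window, the shares were 5.26% and 4.72%. The longer TNAAGGTCA was in none of the 38 windows, against 1.28% of all 32851 windows. CCGGAAGT was in a window of 1 gene (3.33%, against 4.31%). Windows were also at hand for 16 of the nuclear respiratory chain genes listed for comparison below. Each of these 3 motifs was in windows of 1 of those 16 genes (6.25%). The NFAT core GGAAA was in windows of 60.0% of the genes, against 64.4%, and the E-box CANNTG, the site of myogenic factors, in 70.0%, against 75.0%.

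The MEF2 site was in windows of 6 of the 30 genes (20.0%), against 10.6% of all genes in the table. These 6 sites are shown, with the site in capitals, because MEF2 was the one motif searched that a larger share of these genes held than of all genes in the table; they lie before channel, store and buffer genes. By definition the pattern reads as a match on both strands. In Clcn1 it holds the letters TATAAA, which a TATA box can also have, and TATA boxes were not searched for.

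Cacna1s, chr1:136052719-136052746, plus strand: cagcaggggcTAATTTTActcgctggga
Cacnb1, chr11:98018403-98018430, minus strand: atctctgagcTAAATATAccctagcagt
Casq2, chr3:102086337-102086364, plus strand: ttgcatgattTATTTTTAgctcgaaaca
Hrc, chr7:45335159-45335186, plus strand: aggctctggaTAAATTTAgcagcaagaa
Pvalb, chr15:78206562-78206589, minus strand: ggccaagggtTATTAATAggcctggctc
Clcn1, chr6:42286625-42286652, plus strand: gagagacagcTATAAATAgctagaggtg

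The sites begin 82, 48, 68, 100, 179 and 50 bases before the transcription start, in this order. The AAGGTCA match was that of Jph2, on the opposite strand, beginning 76 or 56 bases before its 2 annotated starts.

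Jph2, chr2:163398033-163398059, minus strand: agggcaacacTGACCTTtctatcctgg

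These matches are letters in a window and were not tested as binding sites. The genes of the 6 MEF2 matches had log2 differences between −0.04 (Hrc) and 0.05 (Clcn1), and Jph2 had one of 0.11.

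Of the 8 genes of the voltage sensor and the release channel, 5 had a log2 difference above 0 and 3 below, with a median of 0.0145, which was 0.0011 without the dim Ryr3 and 0.0263 after subtraction of a loess curve of difference on signal. Cacna1s, the pore and voltage sensor of the dihydropyridine receptor, had log2 signals of 12.37 and 12.34. Ryr1, the release channel that it opens, had 12.64 and 12.61. Both lay 0.03 lower on the mutant array, 2.11% and 1.98% in linear terms.

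The accessory subunits of the receptor lay on the other side of 0. Cacng1, its γ subunit, had log2 signals of 11.16 and 11.34, 12.9% higher in the mutant, which was rank 1268 from the highest among all named genes. Cacna2d1, the extracellular α2δ subunit, had 12.21 and 12.28 with its brighter probe set, a log2 difference of 0.06, and a difference of 0.01 with its other one. Cacnb1, the intracellular β subunit, had 10.28 and 10.30.

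Stac3, an adaptor needed for the receptor to reach the triad and to activate release, had log2 signals of 10.55 and 10.53. Fkbp1a, the FK506-binding protein that stabilizes the closed ryanodine receptor, had 10.59 on both arrays. Ryr3, a second ryanodine receptor that adult limb muscle holds in small amounts, had 5.13 and 5.25, a log2 difference of 0.12 at a dim signal. Relative to Ryr1, Ryr3 was thus 0.15 higher in the mutant on the log2 scale.

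**Figure D2:**
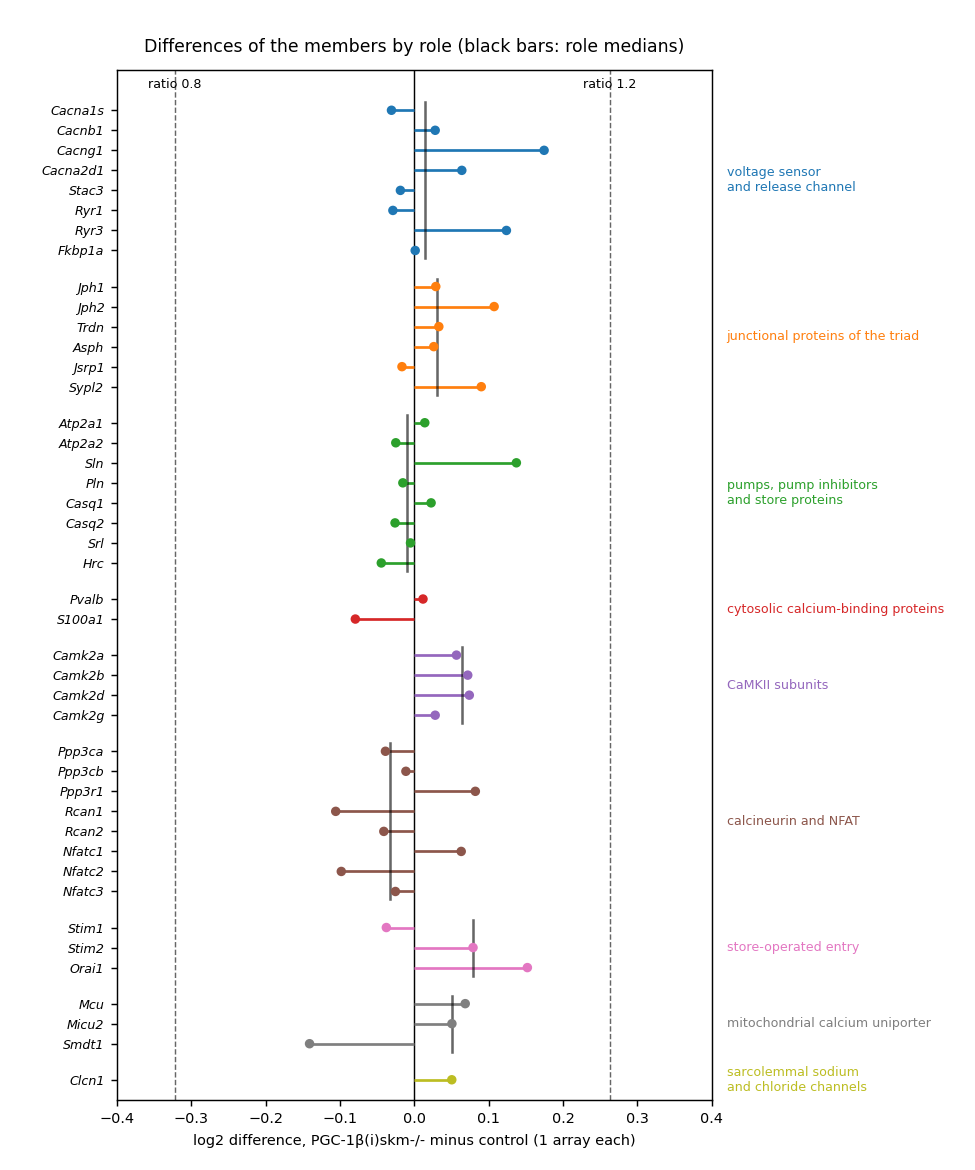
Log2 difference, mutant minus control, of each of the 43 genes (horizontal axis) grouped by role (vertical axis), with black bars at the medians of roles of 3 or more genes and dashed lines at ratios of 0.8 and 1.2. No gene reaches a dashed line, the 4 CaMKII subunits all lie to the right of 0, and Smdt1 (−0.14) and Cacng1 (0.17) lie farthest out.

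Among the 6 junctional proteins, which hold the tubule and the reticulum together and organize the release complex, 5 had a log2 difference above 0. Of all named genes, 50.2% lay below 0. The median of the 6 was 0.03 from the brightest probe sets and 0.06 from the mean or the median of all probe sets of each gene. Jph1, the junctophilin of skeletal muscle, had log2 signals of 12.26 and 12.29, and Jph2, the junctophilin shared with heart, had 10.52 and 10.62. Their second probe sets had differences of 0.04 and 0.05, also above 0. Sypl2, a mitsugumin of the triad membrane, had 11.34 and 11.43, Asph, whose locus encodes junctin, 9.78 and 9.81, and Jsrp1, a partner of calsequestrin and of the receptor, 8.84 and 8.83.

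Trdn encodes triadin, which anchors calsequestrin to the ryanodine receptor, and its value depended on the probe set. The brightest of its 19 probe sets had log2 signals of 13.35 and 13.38, a difference of 0.03. Of all 19, 18 were above 0, from −0.02 to 0.41, with a mean of 0.15 and a median of 0.15. The 10 probe sets with a mean log2 signal of 12 or more ranged from −0.02 to 0.16 with a median of 0.11, and the 9 dimmer ones from 0.09 to 0.41 with a median of 0.22.

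A ratio of 1.2 or more was found for 3 of the Trdn probe sets. Their ratios were 1.33, 1.23 and 1.22, and the first had log2 signals of 9.51 and 9.92. These are the only probe sets of any of the 43 genes past that ratio. Over the 19 probe sets, the correlation of the difference with the mean log2 signal was −0.69, as a description, since the probe sets measure 1 gene in the same 2 RNA pools. Whether they follow different transcripts of the gene or respond differently at different brightness was not tested. Among the 24 genes with 10 or more probe sets, others were as one-sided in sign. Rps12 was above 0 in 14 of 14 probe sets, Ptpn3 in 0 of 12 and Cdc5l in 0 of 11. In size, their mean differences were 0.05, −0.24 and −0.13. The mean of Trdn, 0.15, was the highest of the 24 genes.

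**Figure D3:**
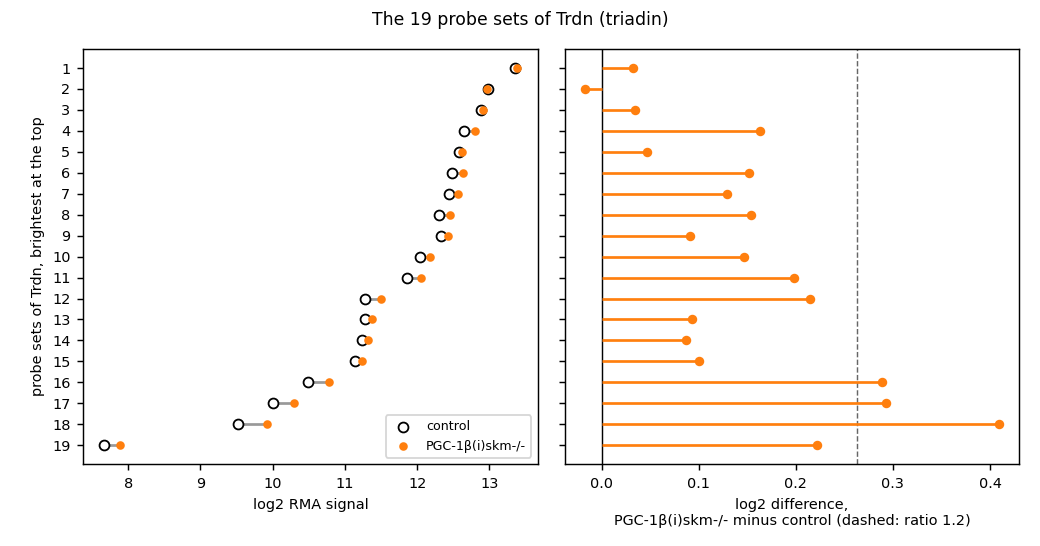
Log2 signals on the control (open) and PGC-1β(i)skm-/- array (filled) of the 19 probe sets of Trdn, from the brightest to the dimmest (left), and their log2 differences with a dashed line at a ratio of 1.2 (right). Only 1 probe set lies below 0, and the 3 beyond the dashed line have mean log2 signals under 11.

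The 8 genes of calcium uptake and storage lay close around 0, with 5 below and 3 above and a median of −0.0104, or −0.0057 after subtraction of the loess curve. Atp2a1, the SERCA1 pump of fast fibres, had log2 signals of 13.83 and 13.85, and Atp2a2, the SERCA2 pump of slow fibres, 10.97 and 10.95. Casq1, the main calsequestrin of skeletal muscle, had 13.29 and 13.32. Casq2, the calsequestrin of heart that slow fibres also hold, had 8.50 and 8.47. Atp2a2 was lower relative to Atp2a1, and Casq2 relative to Casq1. The differences between the log2 differences were −0.04 for the pumps and −0.05 for the calsequestrins. After subtraction of the loess curve they were −0.0216 and −0.0231, and the arrays give no error for differences of this size.

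Sln encodes sarcolipin, a small peptide that inhibits SERCA and uncouples it from transport, and had log2 signals of 5.66 and 5.80, 9.98% higher in the mutant. Pln, phospholamban, the related inhibitor of slow muscle and heart, had 6.36 and 6.34. Both were dim. Srl, sarcalumenin, and Hrc, a histidine-rich protein, both bind calcium in the lumen, and had 12.41 and 12.40, and 11.14 and 11.09.

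In the cytosol, parvalbumin takes up calcium in fast fibres and speeds relaxation, and Pvalb had log2 signals of 13.67 and 13.68. S100a1, a sensor protein that binds the ryanodine receptor and SERCA, had 11.48 and 11.40, 5.35% lower in the mutant.

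All 4 CaMKII genes, which encode the subunits of a kinase activated by calcium-bound calmodulin, were above 0, where 50.2% of all named genes lay below it. The median log2 difference of the 4 was 0.06. Camk2b had log2 signals of 10.61 and 10.69, Camk2d 9.79 and 9.86, Camk2a 8.73 and 8.79, and Camk2g 10.89 and 10.91. The 4 differences ranged from 0.03 to 0.07, so that no subunit stood apart. Of all named genes, 46.5% had a difference larger in size than that of Camk2d, the largest of the 4.

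Of 8 genes of calcineurin and NFAT, 6 were below 0, against 56.4% of all genes with a mean log2 signal of 7 or more. The median of the 8 was −0.03, or −0.01 after subtraction of the loess curve. The catalytic subunits Ppp3ca and Ppp3cb had log2 signals of 11.20 and 11.16, and 11.40 and 11.39, and the regulatory subunit Ppp3r1 10.21 and 10.30. Rcan1, an inhibitor of calcineurin whose own transcription responds to NFAT, had 9.56 and 9.46, 7.07% lower in the mutant. Rcan2, a related inhibitor, had 8.77 and 8.73.

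The NFAT factors lay on both sides of 0. Nfatc1 had log2 signals of 8.28 and 8.34, Nfatc2 7.37 and 7.27, and Nfatc3 9.58 and 9.56. Nfatc2 was 6.59% lower, and 34.7% of all named genes had a difference of larger size.

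For store-operated entry, Stim1 and Stim2, the sensors of calcium in the reticulum, had log2 signals of 9.51 and 9.47, and 9.28 and 9.35. Orai1, the plasma membrane channel that they open, had 7.84 and 7.99, 11.1% higher in the mutant and rank 1748 from the highest of all genes. The log2 difference of Stim2 was 0.12 above that of Stim1.

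For the mitochondrial calcium uniporter, the 3 genes lay on both sides of 0. Mcu, the pore, had log2 signals of 9.02 and 9.09, and Micu2, a regulator that keeps it closed at low calcium, 9.10 and 9.15. Smdt1, encoding EMRE, the small subunit that links the pore to its regulators, had 11.23 and 11.09, 9.31% lower in the mutant, the lowest of all 43 genes. Its rank was 1899 from the lowest among all named genes, and 19.6% of genes had a difference of larger size.

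Nuclear genes of the respiratory chain, listed for comparison, had a median log2 difference of −0.26 over 23 genes. All 23 were below 0 and 8 had a ratio of 0.8 or less, against 50.2% and 0.652% of all named genes. The list was chosen with earlier results known and holds several genes that the study named as lower in these muscles. Its low values were thus in part fixed in advance. The gene closest to 0 was Atp5b, at −0.07. The values of Mcu and Micu2 lay above all 23. That of Smdt1 lay between the differences of Cox6c (−0.11) and Cox5a (−0.18). Only Atp5b and Cox6c of the list lay above Smdt1, and the median of the list lay below it. Clcn1, the chloride channel that stabilizes the resting potential of the sarcolemma, had log2 signals of 10.23 and 10.28.

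**Figure D4:**
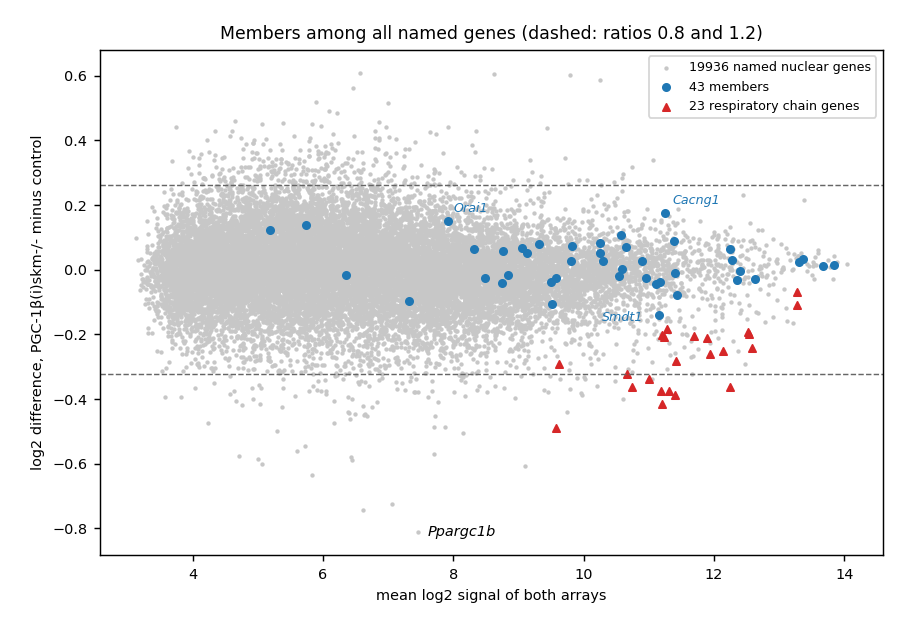
Mutant minus control log2 difference (vertical axis) against the mean log2 signal of both arrays (horizontal axis) for 19936 named nuclear genes (grey), the 43 calcium handling genes (blue) and 23 respiratory chain genes (red triangles), with dashed lines at ratios of 0.8 and 1.2. The blue points lie between −0.14 and 0.17, and the red points of like signal lie lower, down to −0.49.

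A further list of 132 genes of the same pathways was set beside the 44, and 113 of them were measured. Of these 113, none had a ratio of 0.8 or less or of 1.2 or more, against 0.652% and 1.64% of all named genes. A ratio of 0.9 or less was found for 1 and of 1.1 or more for 8, against 8.11% and 10.5%. Below 0 were 51 (45.1%, against 50.2%) and above it 62. The median log2 difference was 0.0034, or at most 0.0134 under the alternatives tried. Among those with a mean log2 signal of 6 or more, the lowest were Ehd1 (−0.15), an endosomal recycling protein, Ppp3cc (−0.15), another catalytic subunit of calcineurin, Nfatc4 (−0.14), Vdac2 (−0.12), a channel of the outer mitochondrial membrane, and Cabin1 (−0.11), an inhibitor of calcineurin. The highest were Jph3 (0.26), a junctophilin of brain, Trpv4 (0.19), a stretch-responsive cation channel, S100a11 (0.19), Selenon (0.18), a selenoprotein of the reticulum, and Slc25a25 (0.18), a calcium-regulated carrier of adenine nucleotides.

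The difference of Jph3 is a ratio of 1.196, just short of 1.2, with log2 signals of 6.30 and 6.56. Of the 19 other store and cytosolic calcium-binding proteins, 15 were above 0, with a median of 0.04. The 9 other mitochondrial calcium genes, 6 of them below 0, had a median of −0.04. For comparison, 50.2% of all named genes lay below 0. The other 5 groups had medians between −0.01 and 0.01. Mrln, encoding myoregulin, a SERCA-inhibiting peptide of skeletal muscle, had log2 signals of 10.34 and 10.48, a difference of 0.13.

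The medians of 12 fast and 12 slow fibre sarcomere genes were 0.02 and 0.01, beside 0.02 for the calcium handling genes. The lowest of the fast genes was Myh1, a myosin heavy chain, at −0.16.

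**Figure D5:**
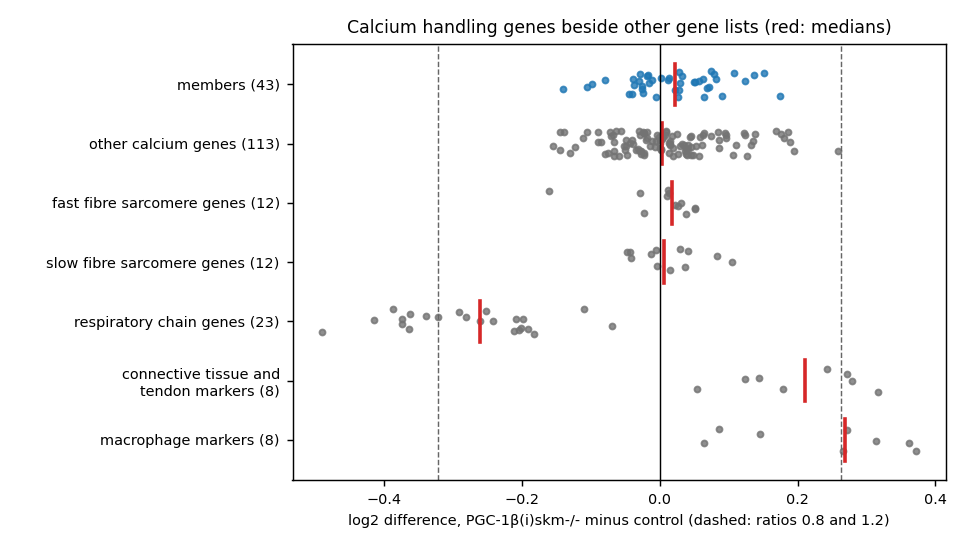
Mutant minus control log2 difference (horizontal axis) of each gene in 7 lists (vertical axis, with the number of genes measured), with red bars at the medians and dashed lines at ratios of 0.8 and 1.2. The medians of both calcium lists and both sarcomere lists lie within 0.03 of 0, that of the respiratory chain at −0.26, and those of connective tissue and macrophage markers at 0.21 and 0.27.

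Both pools were muscle by their markers, with all 10 myofibre markers at a log2 signal between 12.9 and 13.9 and a median difference of 0.02. Markers of other cells were not equal. All 8 connective tissue and tendon markers and all 8 macrophage markers were higher on the mutant array, with summed linear signals 1.14 and 1.203 times those of control. Endothelial markers were above 0 for 5 of 6 (summed ratio 1.05), smooth muscle and pericyte markers for 4 of 6 (1.03), adipocyte markers for 3 of 5 (1.06), mast cell markers for 4 of 6 (1.22), satellite cell markers for 3 of 4 (1.06), Schwann cell and nerve markers for 1 of 5 (0.935) and cardiac markers for 2 of 5 (0.954). Genes such as Orai1, Camk2d, Nfatc1, Nfatc2 and Stim2 are also expressed in cells other than myofibres, and the part of such cells in their differences was not tested.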

How the data were processed

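RNA of gastrocnemius muscle, pooled from 3 mice per genotype, was labelled from 150 ng and hybridized to Affymetrix Mouse Gene 1.0 ST arrays, 1 per genotype. The authors computed the deposited log2 signals by RMA with default settings, which corrects the background, quantile normalizes and summarizes probes by median polish, which hides any shift common to all genes. The sources used here do not give the build of the probe sets. Of 35556 probe sets, 21789 had 1 gene symbol in the platform annotation, 1621 several and 12146 none listed there. Symbols were updated by Entrez ID through RefSeq (GRCm38.p6), with 21694 of 21785 nuclear probe sets matched. Each gene was represented by its brightest probe set over both arrays. The mutant minus control log2 difference was computed, with no filter and no test. Median log2 signals over all probe sets were 6.00 (control) and 6.02 (mutant).

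The members and lists were chosen with earlier results of these data known. All 44 members are named. Of the other calcium genes, the 5 lowest and 5 highest at a mean log2 signal of 6 or more are named; Mrln, the comparison genes Atp5b, Cox6c, Cox5a and Myh1, and Rps12, Ptpn3 and Cdc5l were named after their values were seen, as were the promoters shown. Alternatives were averaging the probe sets of a gene by mean or median, letting a single probe set decide, adding probe sets that name several genes, filters at mean log2 signals of 6 and 7, subtraction of a loess curve (span 0.3) or of the median difference, and other ratios. Python 3.11.15, pandas 2.3.3, numpy 2.4.6, statsmodels 0.14.6 and matplotlib 3.10.9 were used, and the steps were tested on simulated data.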

Additional observations from a re-analysis of the deposited data

How the results depend on the processing

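No paired analysis was possible because each genotype has 1 array. With all alternatives, no member had a ratio of 0.8 or less. The number with a ratio of 1.2 or more was 1 when any probe set of a gene could pass, the gene being Trdn. A ratio of 1.1 or more was reached by 2 genes with the brightest probe sets. With the mean or median of probe sets, Trdn reached it as well. The median over the members ranged from 0.01 to 0.02 and the number below 0 from 17 to 18. Most alternatives could change few member values. Only 4 members have more than 1 probe set, so that averaging left the others as they were. The filters and the added probe sets changed no value of a member kept, and median subtraction changed none by more than 0.0006. No role median, isoform difference or other list median moved by 0.05 or more on the log2 scale under any alternative, but small medians moved by a large factor. That of the junctional proteins went from 0.0309 to 0.0554 with the mean or median of probe sets, that of the voltage sensor and release channel lay between 0.0011 and 0.0263, that of pumps and stores between −0.0155 and −0.0057, that of calcineurin and NFAT between −0.0322 and −0.0144, and that of slow sarcomere genes between 0.0057 and 0.0221. The difference of Jph2 minus Jph1 was 0.0785 with the brightest probe sets and 0.0465 with the mean or median. Of the members, only Trdn moved by as much, to 0.15 with the mean and with the median of its probe sets, and only 1 member, Jsrp1, changed sign, with the loess curve subtracted. With a filter at 6, Ryr3 and Sln were left out, and with a filter at 7 also Pln. With a single array per genotype, the smallest detectable difference is unknown.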
